A study of Mus musculus with 5 samples.

Results

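The glucocorticoid receptor gene Nr3c1, the hormone-activating enzyme gene Hsd11b1 and genes known as targets of the receptor were read in cultured neural precursor cells of the adult mouse brain. The members were chosen by gene name from the tables of all 5 libraries, and the names were Nr3c1, Hsd11b1, Fkbp5, Tsc22d3, Sgk1, Errfi1, Klf9, Zbtb16, Mt1 and Mt2. All 10 names were found among the 46078 genes of the tables. A mean TPM of at least 1 was reached by 9 of them, which were tested together with every other such gene (13870 in all). Hsd11b1 did not reach it. TPM is a gene's share of transcripts after correction for gene length, scaled to the same total in each library, so that levels can be set side by side between genes as well as between libraries.

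The glucocorticoid receptor waits in the cytoplasm in a complex with heat shock proteins and immunophilins. When corticosterone, the main glucocorticoid of mice, binds to it, the receptor moves to the nucleus, attaches to DNA at glucocorticoid response elements and raises the transcription of many genes, among them regulators that damp its own action. In neural stem and precursor cells, glucocorticoids are known to lower proliferation. Several of the target genes answer to other signals as well, such as growth factors for Sgk1 and Errfi1, the circadian clock for Klf9 and zinc for the metallothioneins Mt1 and Mt2.

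The libraries came from neural precursor cells (NPC) of female C57BL/6 mice of 5 to 8 weeks with no mutation, as the labels state, and the methods of the study name an older age range. By the study's methods, all of the cells were grown as spheres in expansion medium with EGF, FGF and B27, a supplement whose published formula includes corticosterone, and were then plated on poly-D-lysine in a medium with B27, EGF, FGF and fetal bovine serum, which also carries steroids and growth factors. PBS was added there to all of them as the sham treatment. RNA was isolated 1 h after PBS addition in 2 libraries (replicates 1 and 2) and 8 h after it in 3 libraries (replicates 13, 14 and 15). The study counted an animal as the biological replicate for such cells, but the labels do not tie a library to an animal, so the p-values below measure the spread between libraries, which may be technical. No library without B27 and serum or with added hormone was analysed here, so the values describe the genes in the plating medium and hold no test of the hormone. Fewer cells of a type and less RNA per cell cannot be told apart in such bulk libraries.

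Several facts about the libraries precede the results. The identifiers in the labels fall into 2 number series, whose meaning the sources used here do not give. Series 1 held both 1 h libraries and 8 h replicate 14, and series 2 held 8 h replicates 13 and 15. The 3 libraries of series 1 went against the female label, with Xist, the RNA that silences an X chromosome in female cells, between 0.0285 and 0.0611 TPM and 4 Y-linked genes summing to between 138 and 181 TPM. In the libraries of series 2, Xist stood at 165 and 199.7 TPM and the Y-linked genes summed to at most 0.0253 TPM. Identifier series and these sex genes divided the libraries identically and cannot be told apart. All 10 markers of neural stem and precursor cells reached a mean of 1 TPM and summed to between 10970 and 13941 TPM, while of the microglial markers 0 of 5 did, with Aif1 and Tmem119 at 0 in every library. That mean was also reached by 2 of 5 endothelial, 6 of 7 oligodendrocyte lineage, 4 of 4 neuronal and 1 of 4 ependymal markers. The astrocyte markers (6 of 6 at a mean of 1 TPM or more) summed to between 959 and 1068 TPM in series 1 and to 1591 and 1661 TPM in series 2. From 13681 to 13967 genes per library reached 1 TPM, and the ratio of coverage to FPKM, which follows depth, was lowest in 1 h replicate 1 and reached 5.21 in 8 h replicate 14.

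The receptor was expressed at a moderate level in every library and its activating enzyme was close to absent. Nr3c1 had 28.9 and 31.0 TPM for 1 h replicates 1 and 2, and 34.7, 36.7 and 37.3 TPM for 8 h replicates 14, 13 and 15. The groups did not overlap, and the 8 h libraries were the higher ones. The mean was 30.0 ± 1.51 TPM (SD, n = 2) at 1 h and 36.2 ± 1.34 TPM (SD, n = 3) at 8 h. The difference on the scale of log2(TPM + 1) was 0.27 with a standard error of 0.10, and it was not called by limma (adjusted p = 0.396).

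Hsd11b1, which turns inactive 11-dehydrocorticosterone into corticosterone inside cells, was listed at 0 in 1 h replicate 2 and in 8 h replicates 13 and 14. Its other values were 0.0628 TPM (1 h replicate 1) and 0.0653 TPM (8 h replicate 15). The opposing enzyme gene Hsd11b2 was also near zero, with 0.128 TPM at most. H6pd, whose enzyme supplies the cofactor for Hsd11b1, ranged from 2.17 to 2.67 TPM in the 1 h libraries and from 3.10 to 3.59 TPM in the 8 h libraries. The related mineralocorticoid receptor gene Nr3c2, which binds corticosterone as well, averaged 0.722 TPM over the 5 libraries, against 33.7 TPM for Nr3c1.

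Over the 5 libraries the metallothionein genes were the most abundant members. Mean levels ran from Mt1 (314 TPM) and Mt2 (160.4 TPM) through Sgk1 (48.3 TPM), Fkbp5 (41.0 TPM), Nr3c1 (33.7 TPM), Klf9 (26.8 TPM), Tsc22d3 (20.5 TPM) and Errfi1 (12.2 TPM) to Zbtb16 (1.93 TPM) and Hsd11b1 (0.0256 TPM). Sgk1 exceeded Fkbp5 in 3 of 5 libraries, so their order did not hold across libraries. Every other pair of neighbours kept its order within each of the 5 libraries. The ranges over libraries were separate only for the neighbours from Tsc22d3 downwards. Among all genes tested, Mt1 stood at percentile 96.8 of mean TPM, Nr3c1 at percentile 62.9 and Errfi1 at percentile 35.9.

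**Figure D1:**
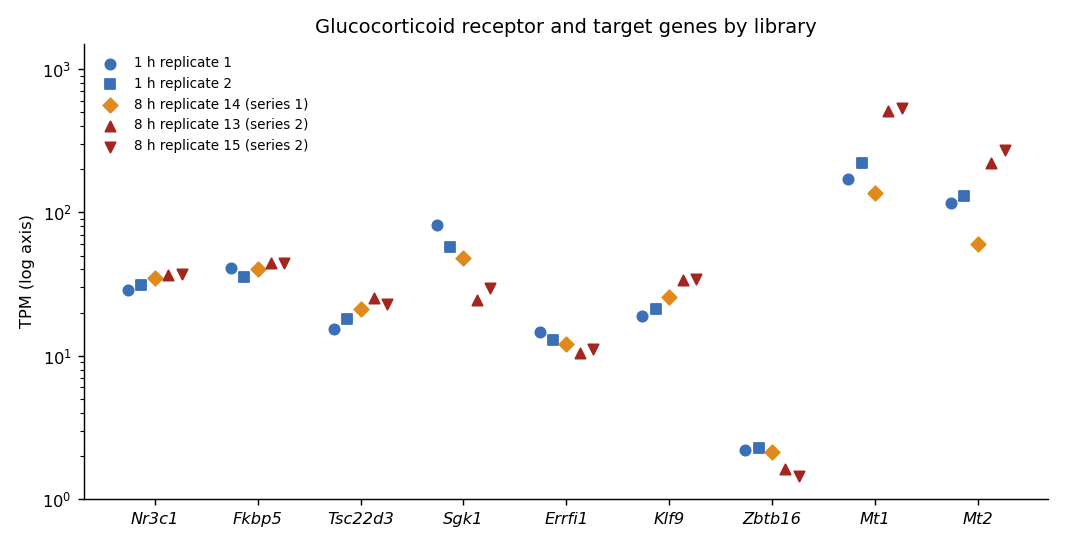
TPM of each member in each library on a log axis, with a point for each library. Mt1 and Mt2 are lowest in 8 h replicate 14 and highest in 8 h replicates 13 and 15, whereas Sgk1 is highest in 1 h replicate 1 (82.0 TPM) and lowest in 8 h replicate 13 (24.6 TPM).

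Fkbp5 and Tsc22d3 act as brakes on glucocorticoid signalling. FKBP5 is an immunophilin that lowers the receptor's affinity for hormone, and its gene is among the most widely used readouts of receptor activity. Fkbp5 had 41.0 and 35.2 TPM in the 1 h libraries, and 40.4, 44.1 and 44.5 TPM for 8 h replicates 14, 13 and 15. The groups overlapped, because 8 h replicate 14 lay between the 1 h libraries. The log2 difference of 0.17 with a standard error of 0.11 was not called (adjusted p = 0.506).

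Tsc22d3, which encodes the glucocorticoid-induced leucine zipper GILZ, an anti-inflammatory regulator, had 15.4 and 17.9 TPM in the 1 h libraries. At 8 h it had 21.0 TPM in replicate 14, 25.3 TPM in replicate 13 and 22.9 TPM in replicate 15. All of the 8 h values were above both 1 h values. Its mean was 16.7 ± 1.82 TPM (SD, n = 2) at 1 h and 23.0 ± 2.13 TPM (SD, n = 3) at 8 h, and the log2 difference was 0.45 with a standard error of 0.14 (adjusted p = 0.350). Within series 1 alone, 8 h replicate 14 exceeded the 1 h libraries by 0.32.

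Klf9 and Zbtb16 encode transcription factors. KLF9 is induced by glucocorticoids and thyroid hormone and restrains proliferation, and it also cycles with the circadian clock. Klf9 had 19.0 and 21.2 TPM in the 1 h libraries, 25.6 TPM for 8 h replicate 14, and 33.8 and 34.5 TPM for 8 h replicates 13 and 15. The 8 h libraries were all higher, with 8 h replicate 14 nearest to the 1 h values. The mean was 20.1 ± 1.54 TPM (SD, n = 2) at 1 h and 31.3 ± 4.94 TPM (SD, n = 3) at 8 h, a log2 difference of 0.60 with a standard error of 0.16 that was not called (adjusted p = 0.312). Without 8 h replicate 14 the difference was 0.74 with an adjusted p of 0.0103, below the fold change threshold. Time and identifier series cannot be told apart without that library. Within series 1 the Klf9 difference was 0.33.

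Zbtb16, the gene of the zinc finger factor PLZF, was scarce. It had 2.20 and 2.25 TPM in the 1 h libraries and 2.14, 1.61 and 1.45 TPM for 8 h replicates 14, 13 and 15. All of the 8 h values were lower, though 8 h replicate 14 lay close to the 1 h libraries. The log2 difference was -0.25 with a standard error of 0.19 (adjusted p = 0.554).

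Sgk1 and Errfi1 encode regulators of kinase signalling. SGK1 is a serine/threonine kinase that controls ion channels and transporters downstream of PI3K. Sgk1 had 82.0 and 56.9 TPM in the 1 h libraries, 48.4 TPM for 8 h replicate 14, and 24.6 and 29.8 TPM for 8 h replicates 13 and 15. All 8 h libraries were lower than both 1 h libraries, and the series 2 libraries were the lowest. The mean was 69.5 ± 17.7 TPM (SD, n = 2) at 1 h and 34.3 ± 12.5 TPM (SD, n = 3) at 8 h. The log2 difference of -1.03 with a standard error of 0.31 was the only one among the tested members beyond 1 in size, and it was not called (adjusted p = 0.341). Within series 1 it was -0.49. Without 8 h replicate 14 it was -1.30 and was called (adjusted p = 0.0113), but time and identifier series cannot be told apart in those 4 libraries, in which 1.12% of all genes were called as lower.

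Errfi1, which encodes MIG6, a feedback inhibitor of the EGF receptor, had 14.7 and 12.8 TPM in the 1 h libraries and 11.98, 10.5 and 11.2 TPM for 8 h replicates 14, 13 and 15. The 8 h values were all lower, by -0.27 on the log2 scale with a standard error of 0.13 (adjusted p = 0.434). EGF was part of the growth medium of every library.

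The receptor's DNA motif was looked for in promoter windows, because Sgk1 and Tsc22d3 are direct targets in other tissues. RefSeq windows of 300 bases, from 250 before to 50 after a transcription start in build GRCm38.p6, were at hand for 8 of the 10 members (16 windows, out of 32851 for all genes). No window was at hand for Nr3c1 and Zbtb16. The perfect palindrome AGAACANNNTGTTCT, read on both strands, was in 3 of the 32851 windows (0.00913%), and the window of 1 of the alternative Sgk1 starts was among them. Its copy reads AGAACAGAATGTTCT and spans positions -189 to -175, counted from 0 at the first transcribed base. The shorter motif TGTTCT, which makes up each arm of the palindrome, was in 19.0% of all windows on either strand. Among the members it was in windows of Sgk1 and Tsc22d3 only, at position -185 in Tsc22d3 and also at -242 in the same Sgk1 window. It was also at -195 and at -13 in windows of other Sgk1 starts. A match describes letters in a window and is not a binding site. The windows below show these matches in capitals. They are chr10:21993640-21993939 on the plus strand for Sgk1, whose gene spans chr10:21882184-21999903, and chrX:140600473-140600772 on the minus strand for Tsc22d3, whose gene spans chrX:140539528-140600659.
Sgk1: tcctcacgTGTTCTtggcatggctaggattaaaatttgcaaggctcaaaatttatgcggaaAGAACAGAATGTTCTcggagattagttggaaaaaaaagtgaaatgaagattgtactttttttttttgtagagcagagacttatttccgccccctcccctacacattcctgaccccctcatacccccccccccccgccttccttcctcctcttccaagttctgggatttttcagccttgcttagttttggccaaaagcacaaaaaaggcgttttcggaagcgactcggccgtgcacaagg
Tsc22d3: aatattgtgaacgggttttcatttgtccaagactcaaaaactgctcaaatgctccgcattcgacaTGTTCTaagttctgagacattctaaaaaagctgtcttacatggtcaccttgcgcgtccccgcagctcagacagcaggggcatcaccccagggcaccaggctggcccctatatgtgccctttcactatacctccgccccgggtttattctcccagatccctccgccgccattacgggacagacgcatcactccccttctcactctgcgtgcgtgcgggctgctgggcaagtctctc

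Sgk1, with the palindrome, had lower values at 8 h and Tsc22d3, with a single TGTTCT, higher ones, and neither difference was called. Fkbp5, Klf9 and Errfi1 held no match to either form in their windows. No binding data were analysed here, and known receptor sites of such genes often lie far from the start, outside these windows.

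Mt1 and Mt2 encode metallothioneins, small cysteine-rich proteins that bind zinc and copper, and they divided the 8 h libraries. Mt1 had 171 and 221 TPM in the 1 h libraries, 136 TPM for 8 h replicate 14, and 508 and 534 TPM for 8 h replicates 13 and 15. Mt2 had 116 and 130.2 TPM in the 1 h libraries, 60.7 TPM for 8 h replicate 14, and 221 and 273 TPM for 8 h replicates 13 and 15. For both genes, 8 h replicate 14 was the lowest of the 5 libraries and the series 2 libraries were the highest. The log2 difference between 8 h and 1 h was 0.78 with a standard error of 0.60 for Mt1 (adjusted p = 0.554) and 0.33 with a standard error of 0.62 for Mt2 (adjusted p = 0.807). Within series 1 the sign turned, to -0.51 for Mt1 and -1.01 for Mt2 (adjusted p = 0.445 and 0.197 with the series as a term). Without 8 h replicate 14, Mt1 was called as higher (1.42, adjusted p = 0.00358), as were 2.97% of all genes, and Mt2 stood at 0.99 (adjusted p = 0.00784). No direction with time can be read from these genes.

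Mt1 and Mt2 were higher in both series 2 libraries than in every series 1 library. In the fit with time and series, series 2 was higher than series 1 by 1.93 for Mt1 and by 2.00 for Mt2, each with a standard error of 0.16 (adjusted p = 0.00541 and 0.00495), and both were called. This contrast sets 8 h replicates 13 and 15 against 8 h replicate 14, with mean TPM 3.83-fold (Mt1) and 4.08-fold (Mt2) higher in the former. Part of it lies in 8 h replicate 14, which differed from the 1 h libraries of its own series by -0.51 (Mt1) and -1.01 (Mt2). The series cannot be told apart from the sex genes. The calls rest on few libraries. Without 8 h replicate 13 the adjusted p was 0.0530 for Mt1 and 0.0384 for Mt2, and without 8 h replicate 15 it was 0.0605 and 0.0510. With every gene tested regardless of level, neither was called (adjusted p = 0.0890 and 0.0815). Among all 13870 genes, 3.33% were called as higher in series 2, against 2 of the 9 members.

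A further metallothionein gene, zinc genes and an astrocyte gene were read beside Mt1 and Mt2. Mt3, a brain metallothionein gene on the same chromosome, had 453, 559 and 441 TPM in series 1 and 840 and 695 TPM in series 2, a difference of 0.79 (adjusted p = 0.0459) that was below the fold change threshold and not called. Slc30a1, which encodes a zinc exporter and is a known target of the zinc sensor MTF1, had 28.4 and 28.5 TPM in the 1 h libraries, 15.6 TPM for 8 h replicate 14, and 24.6 and 28.7 TPM for 8 h replicates 13 and 15. As with Mt1 and Mt2, 8 h replicate 14 was its lowest library, and the series difference was 0.73 (adjusted p = 0.0353), below the fold change threshold. Mtf1 itself lay between 16.4 and 17.7 TPM. The astrocyte gene Gfap stood at 4.35 and 4.15 TPM in the 1 h libraries, 1.81 TPM for 8 h replicate 14, and 26.0 and 47.2 TPM for 8 h replicates 13 and 15. Astrocytes are rich in metallothioneins, and the part of these markers in the Mt1 and Mt2 values was not tested.

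The ratio of Mt1 to Mt2 TPM was 1.47 and 1.69 at 1 h, 2.24 in 8 h replicate 14, and 2.29 and 1.95 in 8 h replicates 13 and 15. Each 8 h library, of either series, had a higher TPM ratio than both 1 h libraries. This did not hold in every 8 h column of the count table, and the difference was not tested. The genes are close relatives, but their annotated coding transcripts (3 for Mt1 and 2 for Mt2) share no run longer than 20 bases. The windows of the start sites hold several matches to the metal response element to which MTF1 binds, read here as TGCACNC or TGCGCNC on both strands (forms that differ at 1 letter). Mt1 had 3 matches, beginning at -23, 2 and 20, and Mt2 had 4, beginning at -223, -128, -50 and 4. Of all windows, 25.7% held a match to either form (12.6% TGCACNC and 15.4% TGCGCNC), and 1.97% held 3 or more. The palindrome and the shorter receptor motif were in neither window. The windows are chr8:94178839-94179138 for Mt1 and chr8:94172368-94172667 for Mt2, both on the plus strand and upstream of genes at chr8:94179089-94180325 and chr8:94172618-94173567, with the metal response matches in capitals.
Mt1: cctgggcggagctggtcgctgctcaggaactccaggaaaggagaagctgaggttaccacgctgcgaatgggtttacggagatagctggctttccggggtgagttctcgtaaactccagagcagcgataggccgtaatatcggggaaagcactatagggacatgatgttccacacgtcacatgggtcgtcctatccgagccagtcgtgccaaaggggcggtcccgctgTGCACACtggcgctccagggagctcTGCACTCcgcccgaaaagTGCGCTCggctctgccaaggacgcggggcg
Mt2: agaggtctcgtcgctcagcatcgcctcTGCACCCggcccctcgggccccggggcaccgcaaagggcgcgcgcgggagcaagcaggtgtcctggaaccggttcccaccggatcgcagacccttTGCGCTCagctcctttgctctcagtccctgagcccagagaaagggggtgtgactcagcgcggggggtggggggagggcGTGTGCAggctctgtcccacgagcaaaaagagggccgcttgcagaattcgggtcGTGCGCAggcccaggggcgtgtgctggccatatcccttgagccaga

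**Figure D2:**
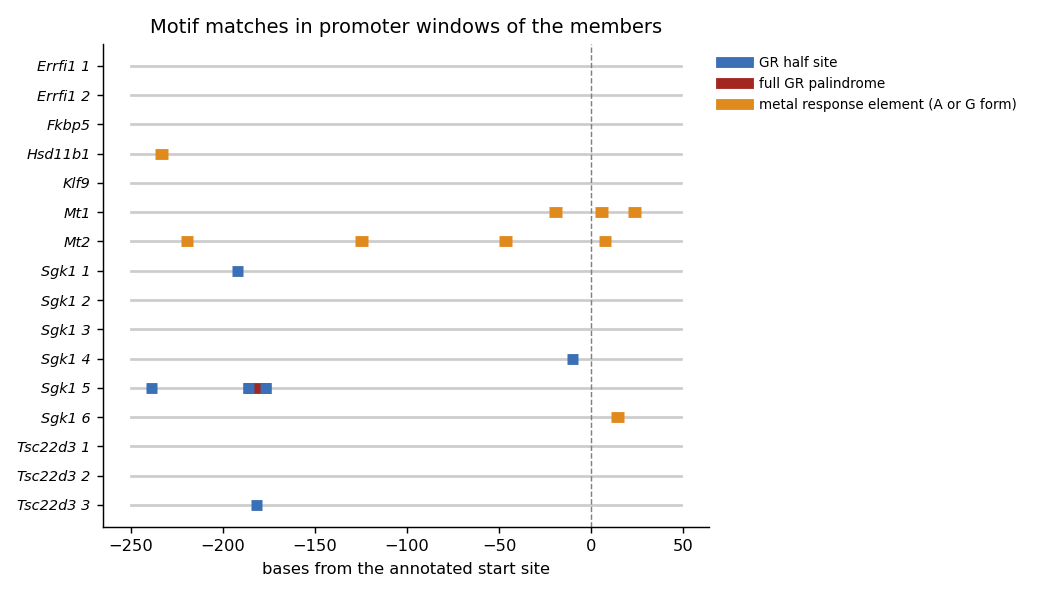
Position of motif matches in the promoter windows of the members, in bases from the transcription start (0), with a row for each window. Among the plotted windows, the full palindrome (beginning at -189) is only in that of an alternative Sgk1 start, and Mt1 and Mt2 hold 3 and 4 metal response matches.

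The members were next set against all genes for the comparison of 8 h with 1 h. Limma called 0 of 9 members (adjusted p up to 0.05 with a log2 difference beyond 1 in size), and called 0.0433% of all genes tested. An unadjusted p under 0.05 was reached by 3 members as higher at 8 h (Klf9, Nr3c1 and Tsc22d3), where 9.52% of all genes did so, and by 1 member as lower (Sgk1), where 2.82% did so. The groups did not overlap for 3 members as higher (Klf9, Nr3c1 and Tsc22d3), against 23.7% of all genes, and for 3 as lower (Errfi1, Sgk1 and Zbtb16), against 9.43%. The median log2 difference was 0.27 over the members and 0.10 over all genes. Median-ratio scaling moved the median of all genes by -0.11 and left each tested member on its side of 0. Every tested member moved down with it, for example Nr3c1 to 0.16, Fkbp5 to 0.06 and Sgk1 to -1.14. Receptor target genes thus stood on both sides of 0.

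**Figure D3:**
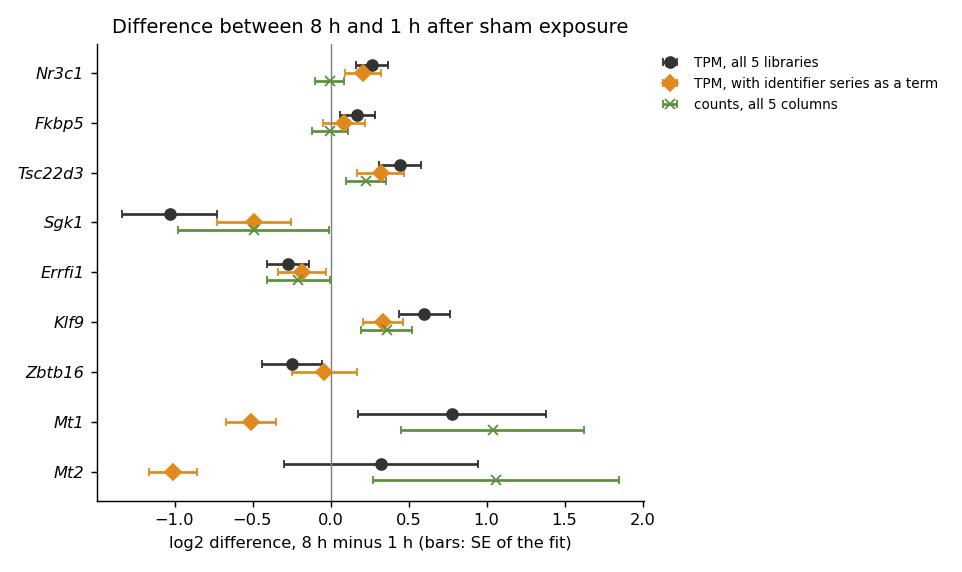
Log2 difference between 8 h and 1 h for each tested member, with bars of 1 standard error. Shown are the TPM tables without and with the identifier series as a term and, where a member was listed, the count table. In the TPM tables without that term, Sgk1 is the lowest at -1.03. The bars of Mt1 and Mt2 are the widest there, with standard errors of 0.60 and 0.62. With the term, Mt2 is the lowest at -1.01.

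In each of the 6 members whose groups did not overlap, 8 h replicate 14 lay between the 1 h libraries and the other 8 h libraries. How often this held over all genes was not counted, so it is not read as a trait of the members. In the fit with time and series, the series difference was 0.40 for Klf9 (adjusted p = 0.117) and -0.81 for Sgk1 (adjusted p = 0.0928). It was 0.09 for Nr3c1, 0.13 for Fkbp5 and 0.19 for Tsc22d3, with adjusted p of 0.490 or higher. An unadjusted p under 0.05 for the series was reached by 3 members as higher in series 2 (Klf9, Mt1 and Mt2), against 20.3% of all genes, and by 1 as lower (Sgk1), against 6.13%.

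**Figure D4:**
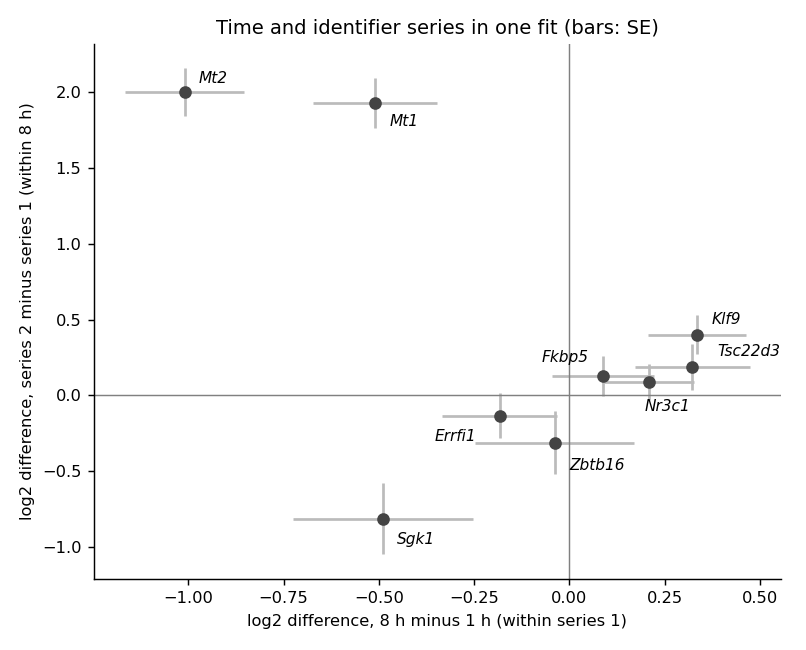
Difference of 8 h replicate 14 from the 1 h libraries (horizontal axis, log2) against the difference of 8 h replicates 13 and 15 from 8 h replicate 14 (vertical axis, log2) for each tested member. Mt1 and Mt2 sit alone at the upper left, with 1.93 and 2.00 on the vertical axis, and Sgk1 is the lowest on it at -0.81.

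Profiles over the 5 libraries were compared between members as the root mean square difference of log2(TPM + 1) after each gene was centred on its mean. Nr3c1 and Fkbp5 were each other's nearest (0.110), and Tsc22d3 was nearest to Nr3c1 (0.114) and Klf9 to Tsc22d3 (0.124). Errfi1 and Zbtb16 formed a further pair (0.108), and Mt1 and Mt2 another (0.244). Sgk1 had the largest distance to its nearest member, Errfi1 (0.464), although both genes ranked the 5 libraries in the same order. The distance also follows the size of a gene's changes. A gene's own root mean square deviation was 0.61 for Sgk1, 0.16 for Errfi1, 0.14 for Nr3c1 and 0.12 for Fkbp5. Small distances between genes that vary little are therefore not read as a shared profile. These distances rest on 5 libraries and carry no test.

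The count table held 8 of the members and gave no call. Its columns were compared with the TPM tables first, over 7227 genes and as differences from the 1 h mean. The 1 h columns were within 0.1 log2 of their own tables for 88.9% of the genes. For the column carrying the name of 8 h replicate 13, the share was 25.0% with its own table but 78.6% with that of 8 h replicate 14. With the name of 8 h replicate 15 it was 41.2% and, with the table of 8 h replicate 13, 78.7%. The third 8 h column, named for replicate 14, came close to no table (39.7% at most). Columns are therefore given under their names, and an 8 h column need not be the library of the same name.

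By edgeR's quasi-likelihood test, 0 of 8 members were called, as were 0% of the 7590 genes tested, and an unadjusted p under 0.05 was reached by 0 of 8 members and by 2.62% of all genes. DESeq2 also called 0 genes. Read counts behind these values ran from 347 for Tsc22d3 to 3587 for Mt1. Nr3c1 differed by -0.0059 and Fkbp5 by -0.0031 on the log2 scale, where the TPM tables gave 0.27 and 0.17. Tsc22d3 (0.23), Klf9 (0.36), Errfi1 (-0.21) and Sgk1 (-0.49) had the sign they had in the TPM tables, each with an adjusted p of 0.966. Sgk1 had 135 and 96.8 CPM at 1 h, and 136, 78.9 and 36.9 CPM in the columns named 8 h replicates 14, 13 and 15. The column named 8 h replicate 14 was thus as high as the highest 1 h column, and without it the Sgk1 difference was -1.01 (adjusted p = 0.746).

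In the count table Mt1 and Mt2 also varied most within the 8 h group, but not as a separate observation. Relative to the 1 h mean, the column named 8 h replicate 13 differed from the TPM table of 8 h replicate 14 by -0.0060 (Mt1) and -0.0078 (Mt2) log2. The column named 8 h replicate 15 differed from the TPM table of 8 h replicate 13 by -0.00013 and -0.0095. Mt1 had 66.0 and 86.4 CPM at 1 h, and 248, 52.3 and 180.1 CPM in the columns named 8 h replicates 14, 13 and 15. Mt2 had 46.6 and 53.2 CPM at 1 h, and 215, 24.2 and 81.0 CPM in the same columns. The column named 8 h replicate 14 was the highest and that named 8 h replicate 13 the lowest of all 5. In the former, Mt1 had 3587 reads and Mt2 3109, a lower ratio than in both 1 h columns. Those had 923 and 652 reads in replicate 1 and 1427 and 879 in replicate 2. The columns named 8 h replicates 13 (942 and 436 reads) and 15 (3344 and 1505 reads) had higher ratios than both. The log2 difference was 1.04 for Mt1 and 1.06 for Mt2 (adjusted p = 0.966 for each), and without the column named 8 h replicate 14 it was 0.59 and 0.06.

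A wider list of 60 genes of the pathway was read in the same way, of which 47 had a mean TPM of at least 1. None was called (0 of 47). Separate ranges were seen for 10 of the 47 as higher at 8 h and for 8 as lower, where the shares of all genes were 23.7% and 9.43%. An unadjusted p under 0.05 was reached by 3 as higher (Fkbp4, Hspa8 and Nrip1), where 9.52% of all genes did so, and by 6 as lower (Crebbp, Ncoa1, Ncoa2, Nfkbia, Per1 and Rasd1), where 2.82% did so. Without 8 h replicate 14, 2 of the 47 were called as lower, Per1 and Rasd1, and 1.12% of all genes were called as lower in that setting. Time and identifier series cannot be told apart there.

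Chaperones that fold the receptor and hold it ready for hormone gave different medians in the TPM and count tables, and none was called. Of the 9, all tested, 5 were higher without overlap (Dnajb1, Fkbp4, Hspa8, Ppid and Ptges3), where 23.7% of all genes were. As lower without overlap there were 0, where 9.43% of all genes were. The median log2 difference of the 9 was 0.17 in the TPM tables, where that of all genes was 0.10. In the count table the median of the 8 tested was -0.0056, where that of all genes was 0.0061, and Ppid, for example, stood at -0.033. Hspa8, the constitutive HSC70, had 1961 and 1902 TPM in the 1 h libraries and 3151, 3312 and 3241 TPM for 8 h replicates 14, 13 and 15. All of the 8 h libraries were well above the 1 h libraries, including replicate 14 of the same series. Its difference of 0.74 with a standard error of 0.10 was not called (adjusted p = 0.214). In the count table Hspa8 differed by 0.40 (adjusted p = 0.966), and by 0.63 without the column named 8 h replicate 14 (adjusted p = 0.746).

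Coregulators, which the bound receptor recruits to chromatin, stood on both sides. Of the 11, all tested, 2 were higher without overlap (Ncoa3 and Nrip1), where 23.7% of all genes were. As lower without overlap there were 3 (Crebbp, Ncoa1 and Ncoa2), where 9.43% of all genes were. The median of the 11 was -0.13. Ncoa1, the steroid receptor coactivator SRC-1, had 28.7 and 29.5 TPM in the 1 h libraries and 21.8, 21.3 and 21.3 TPM for 8 h replicates 14, 13 and 15. Its difference was -0.42 with a standard error of 0.10 (adjusted p = 0.298). Crebbp, a histone acetyltransferase gene, differed by -0.49 (adjusted p = 0.380), Nrip1, the corepressor RIP140, by 0.46 (adjusted p = 0.345), and Ncoa3, a further steroid receptor coactivator, by 0.26 (adjusted p = 0.425). Of the hormone-handling genes, 3 of 7 were tested and 2 were higher without overlap (H6pd and Srd5a1), where 23.7% of all genes were. Srd5a1, a steroid reductase gene, differed by 0.63 (adjusted p = 0.415), which was 0.07 within series 1, while its series difference was 0.85 (adjusted p = 0.0215).

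Further target genes of the receptor were, where the groups were separate, at lower values at 8 h. Of 24, 17 were tested, and 0 were higher without overlap, where 23.7% of all genes were. As lower without overlap there were 5 (Gpd1, Nfkbia, Per1, Pik3r1 and Rasd1), where 9.43% of all genes were. The median was -0.16 in the TPM tables, where that of all genes was 0.10. Over the 11 tested in the count table it was 0.016, where that of all genes was 0.0061. Per1, a clock gene with a glucocorticoid response element, had 36.4 and 39.7 TPM in the 1 h libraries and 16.4, 18.9 and 13.5 TPM for 8 h replicates 14, 13 and 15. The 8 h libraries of both series lay far below the 1 h libraries. The difference was -1.19 with a standard error of 0.16 (adjusted p = 0.214), and -1.17 within series 1. Nfkbia, the inhibitor of NF-kappaB, had 37.7 and 40.3 TPM in the 1 h libraries and 24.4, 22.9 and 28.9 TPM for 8 h replicates 14, 13 and 15, a difference of -0.60 with a standard error of 0.13 (adjusted p = 0.285). Glul, the glutamine synthetase gene, which is also an astrocyte gene, was the list's only call between the series, with 212, 228 and 182 TPM in series 1 and 399 and 390.1 TPM in series 2 (1.12, adjusted p = 0.00616). That call was lost without 8 h replicate 13 and without 8 h replicate 15. Of the relatives of members and zinc genes, 7 of 9 were tested, with 1 higher (Tsc22d1), 0 lower and a median of 0.05.

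In the count table, 37 of the 60 genes were tested and 0 were called. An unadjusted p under 0.05 was reached by 4, namely Dusp1, Ncoa1, Ncoa2 and Nfkbia, all as lower at 8 h, against 2.62% of all genes in either direction. Nfkbia differed there by -0.74, Per1 by -0.60, Ncoa1 by -0.41 and Dusp1, a MAP kinase phosphatase gene, by -0.46, all with an adjusted p of 0.966. Per1 had 120.0 and 139 CPM at 1 h, and 146, 57.6 and 59.2 CPM in the columns named 8 h replicates 14, 13 and 15. Its highest value was thus in the column named 8 h replicate 14, and without that column the difference was -1.16 with a standard error of 0.12 (adjusted p = 0.383).

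**Figure D5:**
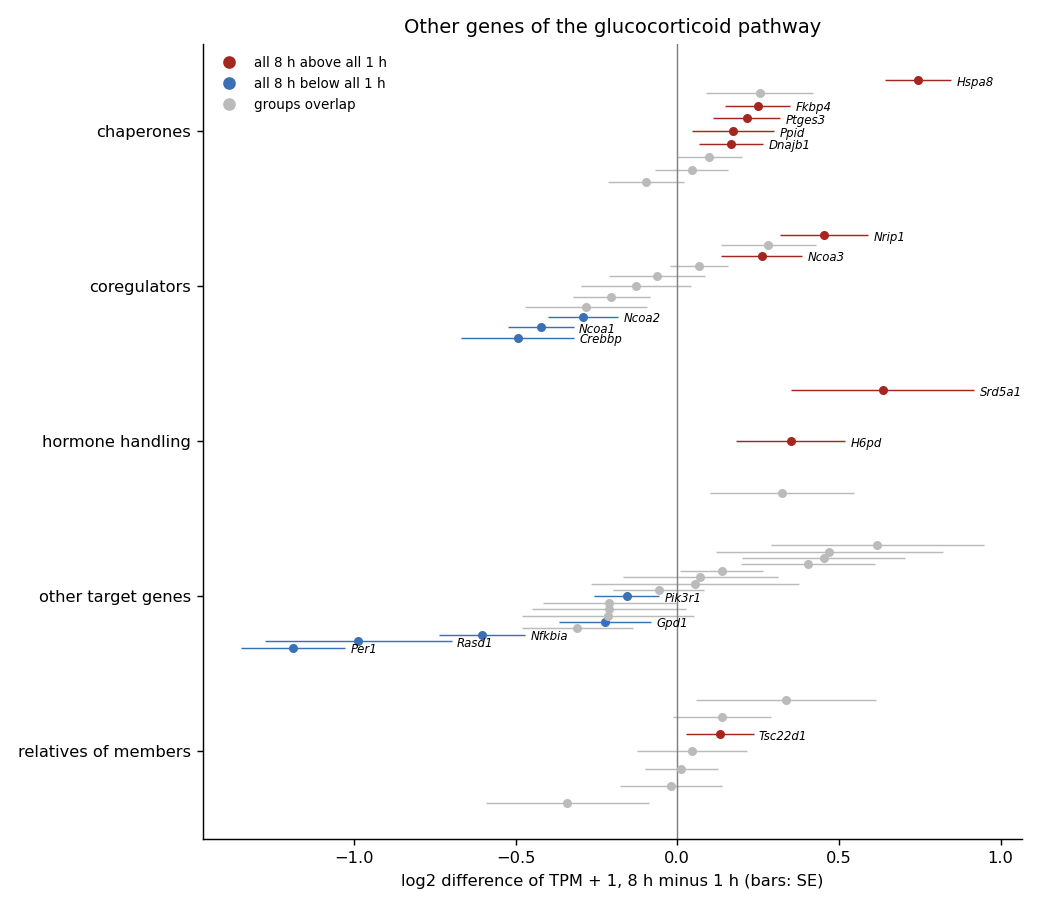
Log2 difference between 8 h and 1 h for the 47 tested genes of the wider list, grouped by role, with bars of 1 standard error and names for the genes whose groups did not overlap. The target genes with names all lie below 0, down to -1.19 for Per1, and the chaperones with names all lie above it, up to 0.74 for Hspa8.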

How the data were processed

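Stranded, poly-A selected RNA-seq libraries were analysed, 2 at 1 h and 3 at 8 h, grouped by the labels. The authors aligned reads to GRCm38 with STAR through nf-core/rnaseq and counted them with featureCounts; the deposited counts are whole reads per gene, filtered by an unstated rule, for 7599 genes, so their totals (13988166 to 18572154 per column) are not the full depth. The deposited table of each library gives TPM, FPKM and mean per-base coverage in the layout of StringTie's gene abundance output (version not given in the sources used here). Submitters' processing notes also name bcl2fastq 2.19.1.403, CASAVA and DESeq2. Depth limits the scarce genes most, and 0 value columns were left unassigned.

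TPM was summed per gene. Limma 3.58.1 in R 4.3.3 with an intensity trend was run on log2(TPM + 1), a scale that understates changes of low genes, over genes averaging 1 TPM or more. Counts were tested with edgeR 4.0.16 (quasi-likelihood, TMM, filterByExpr), and CPM is the count scaled to the column total. Calls needed a Benjamini-Hochberg adjusted p up to 0.05 and a log2 difference beyond 1 in size, the study's thresholds for its other RNA-seq. All tests were two-sided. Identifier series were compared in a fit with time and series. Alternatives were DESeq2 1.42.0, pseudocount 0.1, other filters and scalings, the series as a term, series 1 alone, and each library left out; for the series contrast the last was added after seeing the data. The main TPM and count fits and the TPM fit with time and series were run on simulated data with independent noise. The other alternatives were not.

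All members are named, and of the wider list every gene called and, in each direction, up to 4 with the largest difference among those averaging 5 TPM or more and no overlap. Further names (H6pd, Hsd11b2, Nr3c2, Mt3, Slc30a1, Mtf1, Gfap, Dusp1, Rasd1 and the genes listed beside a count) were chosen after their values were seen. Members and lists were chosen with earlier results of these data known. Motifs were searched on both strands of RefSeq promoter windows. Transcripts of Mt1 and Mt2 were those of GENCODE vM21.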

Additional observations from a re-analysis of the deposited data

How the results depend on the processing

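No paired analysis was possible because the groups share no replicate number. In the TPM comparison of 8 h with 1 h, 6 genes were called; without a filter on low values 0 were, with the series as a term 19, and with a library left out 0 to 568. Members called ranged from 0 to 2 when a library was left out, and wider pathway genes from 0 to 2, the highest each time without 8 h replicate 14. Mt1 turned to -0.51 and Mt2 to -1.01 with the series as a term and in series 1 alone, and Mt2 ranged from -0.084 (without 8 h replicate 15) to 0.99 (without 8 h replicate 14). In the count table, 0 genes were called in every setting run (199 had an unadjusted p under 0.05 with edgeR and 227 with DESeq2). The series as a term, taken there from column names that do not match the TPM tables and so no valid adjustment, turned Nr3c1 to 0.039, Sgk1 to 0.20 and Errfi1 to 0.076; with a library left out Nr3c1 ranged from -0.042 to 0.037 and Fkbp5 from -0.092 to 0.098. Between the series, 558 genes were called, against 0 without a filter, and 23 to 644 with a library left out; 2 members were called, against 0 without a filter and 0 to 2 with a library left out; and 1 wider pathway gene, against 0 without a filter and 0 to 1. Without 8 h replicate 14 the series term could not be fitted. Of the member values under alternatives, 232 kept their sign and their side of the threshold. A further 12 turned sign, 2 gained a call and 5 lost it. The 232 include values without the fold change threshold, which are those of the main fit itself. The series as a term and series 1 alone give the same TPM difference, so they are not separate alternatives for its sign. The cause of these shifts was not tested, and the small number of libraries limits all calls.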
